A study of Homo sapiens with 21 samples.

Results

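Integrins are receptors of the cell surface that bind the extracellular matrix, and each is made of an alpha and a beta subunit. The genes described here are the alpha subunits ITGAV, ITGA5, ITGA8, ITGA4 and ITGA9, which are 5 of the 60728 genes in the deposited table. They were chosen by symbol, for the ligands that their proteins bind. All 5 passed the filter on low values, which left 18584 genes for testing. ITGAV, ITGA4 and ITGA9 were lower than in the control in all 6 silenced conditions, ITGA8 was called lower in 4, and ITGA5 ranged from 19.2% to 256% of the control depending on the shRNA or combination used.

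The subunits alpha-V, alpha-5 and alpha-8 recognise the short peptide RGD in ligands such as fibronectin, vitronectin and nephronectin. Alpha-IIb, encoded by ITGA2B, also recognises RGD and is counted here among the other alpha subunits. Alpha-4 and alpha-9 form a related pair that binds other sites, in VCAM1, tenascin and an alternatively spliced region of fibronectin. Alpha-5, alpha-8 and alpha-9 pair with beta-1 alone, alpha-4 pairs with beta-1 or beta-7, and alpha-V pairs with several beta subunits. Alpha-4 integrins are well known from the crest cells that give rise to the sympathetic nervous system, and from leukocytes.

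The study silenced ARID1A and ARID1B, which encode alternative subunits of the BAF chromatin remodelling complex, in SK-N-BE(2), an established human neuroblastoma cell line with MYCN amplification. The cells were transduced with lentiviral particles carrying shRNAs, short hairpin RNAs that lower a target transcript, and RNA was taken 72 h later. There were 21 polyadenylated RNA libraries in 7 conditions of 3 libraries each, described as biological triplicates. The question here is how the RNA of these receptor subunits differed from the control in each silenced condition, and whether the shRNAs that share a label gave the same values.

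The conditions by their labels were Control, a non-silencing shRNA, shARID1A.2 and shARID1A.4, each aimed at ARID1A, shARID1B.2 and shARID1B.3, each aimed at ARID1B, and shARID1A/B.2.3 and shARID1A/B.4.2, which combine shRNAs against both genes. Every condition shares the cell line, the lentiviral transduction and the 72 h. A single cell line limits all of the values to that line. The values are reads per gene divided by 1 size factor per library, called normalized values here. Recovered totals ran from 27954334 to 41077638 reads per library. Markers of noradrenergic neuroblastoma cells were present in all conditions, with 9 of 9 genes tested and a summed normalized value of 115385 to 471040. Most of that sum was MYCN, at 120355 to 124192 in Control and 410526 to 426870 in shARID1A.4. In shARID1A.4, 4 of the 9 markers were lower and 4 higher than in Control, beside 36.6% and 37.0% of all genes tested. The deposited libraries are bulk RNA, in which fewer cells of a type and less RNA per cell cannot be told apart.

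The silenced genes went against some of the labels. ARID1A had normalized values of 6097, 6374 and 6463 in the 3 Control libraries, and its means were 34% of that under the label shARID1A.2, 35.6% under shARID1A.4, 30.4% under shARID1B.2 and 39.3% under shARID1B.3. In the conditions labelled shARID1A/B.2.3 and shARID1A/B.4.2 it was at 89.7% and 86.2%. ARID1B had normalized values of 5793, 5804 and 5791 in Control. Its log2 difference from Control was -1.37 under the label shARID1A.2 and -0.9 under shARID1A.4, while under shARID1A/B.2.3 and shARID1A/B.4.2 it was -1.16 and -1.6. In those labelled shARID1B.2 its log2 difference was -0.21, and in those labelled shARID1B.3 it was 0.07. Both transcripts were therefore low in the libraries labelled shARID1A, ARID1A was the low one in those labelled shARID1B, and ARID1B was the low one in those labelled shARID1A/B. Conditions are named by their labels throughout, and every direction is drawn from libraries named in this way.

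**Figure D1:**
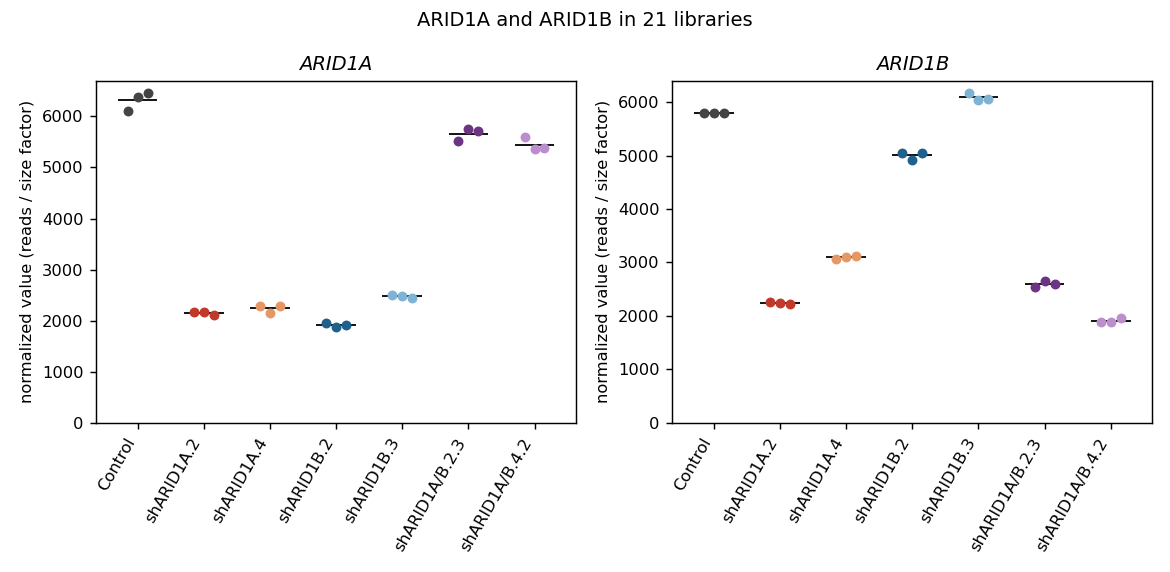
Normalized value (reads divided by the size factor) of ARID1A and ARID1B in each of the 21 libraries, by condition as labelled, with points for libraries and lines for the mean of 3. ARID1A is near the control only in the libraries labelled shARID1A/B, and ARID1B is near it only in those labelled shARID1B.

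Promoter sequence was available for 4 of the 5 genes from RefSeq (GRCh38.p14), as windows of 300 bases around each annotated start; no window was found for ITGA9. ITGAV has more than 1 annotated start, and its most upstream window is used. It is shown because it was the most abundant member and lower than the control in all 6 conditions. The 250 bases before its start, chr2:186589806-186590055 on the plus strand, are given with CpG dinucleotides in capitals.

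ITGAV promoter: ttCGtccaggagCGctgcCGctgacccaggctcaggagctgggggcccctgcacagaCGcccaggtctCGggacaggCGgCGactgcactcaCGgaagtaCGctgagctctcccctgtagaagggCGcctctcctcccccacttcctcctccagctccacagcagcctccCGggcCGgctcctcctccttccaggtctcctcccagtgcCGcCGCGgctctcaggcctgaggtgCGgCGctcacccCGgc

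This stretch held 18 CpG dinucleotides at a GC content of 70.8%. The median over 34943 promoter windows was 11 in the same 250 bases, and 36.7% of windows held at least as many as ITGAV. ITGA5 is shown because its values differed most between the shRNAs and combinations. Its window contained 1 match each to TGANTCA, the AP-1 motif, to GGAATG, the TEAD motif, and to GGGCGG, the SP1 motif, searched on both strands. The match is in capitals, and the sequences are written on the minus strand of chromosome 12. They lie at chr12:54419254-54419283, chr12:54419330-54419359 and chr12:54419458-54419487 in this order. The SP1 match reads CCGCCC there, the reverse complement of GGGCGG, so that its motif is on the plus strand.

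ITGA5 AP-1 match: cctccccgcgtTGAGTCAttcgcctctggg
ITGA5 TEAD match: ccagggacccaGGAATGcccccccgccagc
ITGA5 SP1 match: agaacccaaacCCGCCCagtctaacccagt

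Matches to these letters were found in 7.72% of all windows for AP-1, 14.0% for TEAD and 44.9% for SP1. The windows of ITGA4 and ITGAV held 0 matches to any of the 3 motifs. That of ITGA8 held 4 to SP1, of which 3 form a run in which only neighbours overlap. A match is a description of letters and not of binding.

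ITGAV, on chromosome 2 from 186590065 to 186680901 (GRCh38, plus strand), encodes the alpha-V subunit, which pairs with beta-1, beta-3, beta-5, beta-6 and beta-8. Its normalized values in the 3 Control libraries were 9692, 9164 and 9298. They were 2173, 2319 and 2231 in shARID1A.2, and 1998, 1714 and 1873 in shARID1A.4. All libraries of both conditions lay far below the lowest Control library. In shARID1B.2 the values were 3326, 3291 and 3364, and in shARID1B.3 they were 2625, 2779 and 2813. In shARID1A/B.2.3 they were 4170, 4280 and 3988, and in shARID1A/B.4.2 they were 2986, 3200 and 3271. The Control did not overlap any other condition, and no 2 neighbours in the order of the means overlapped, from Control through shARID1A/B.2.3, shARID1B.2, shARID1A/B.4.2, shARID1B.3 and shARID1A.2 to shARID1A.4. Expressed as a share of the Control mean, ITGAV was at 44.2% in shARID1A/B.2.3 and at 19.8% in shARID1A.4, the highest and the lowest of the 6 conditions. The log2 differences from Control were -2.07 in shARID1A.2, -2.34 in shARID1A.4, -1.5 in shARID1B.2, -1.78 in shARID1B.3, -1.18 in shARID1A/B.2.3 and -1.57 in shARID1A/B.4.2, with a standard error of 0.04. All 6 passed an adjusted p of 0.05 in limma with Benjamini-Hochberg adjustment over all genes tested.

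ITGA9, on chromosome 3 from 37452115 to 37823514 (plus strand), encodes alpha-9, which binds tenascin and EMILIN1. Its normalized values were 861, 817 and 793 in Control. They were 227, 237 and 226 in shARID1A.2 and 103, 126 and 142 in shARID1A.4. The highest silenced library of ITGA9, 345, was under the lowest Control library. In shARID1B.2 the values were 339, 325 and 324, in shARID1B.3 they were 345, 301 and 313, and in shARID1A/B.4.2 they were 334, 328 and 323. These 3 conditions could not be ordered, since their ranges overlapped. In shARID1A/B.2.3 they were 203, 220 and 212. The log2 differences from Control were -1.84 in shARID1A.2, -2.74 in shARID1A.4, -1.32 in shARID1B.2, -1.36 in shARID1B.3, -1.96 in shARID1A/B.2.3 and -1.32 in shARID1A/B.4.2, with a standard error of 0.08, and each was called lower in limma. ITGA9 shares 535 exon bases (6.5% of its own) with ITGA9-AS1 on the opposite strand. The library kit keeps the strand, whereas the strand setting of the counting was not given in the sources used here. ITGA9-AS1 was at normalized values of 43.5 to 105 in all libraries and its log2 differences from Control ran from -0.43 in shARID1A/B.2.3 to 0.73 in shARID1B.3.

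ITGA4, on chromosome 2 from 181457202 to 181536187 (plus strand), encodes alpha-4, the receptor subunit for VCAM1 and for a spliced region of fibronectin. Normalized values were 196, 195 and 185 in Control. They were 40.7, 59.7 and 67.9 in shARID1A.2 and 29.1, 33.3 and 30.9 in shARID1A.4. The lowest values of ITGA4 were thus in shARID1A.4, whose libraries lay below all others. In shARID1B.2 they were 111, 125 and 120, and in shARID1B.3 they were 89.6, 64.6 and 107. In shARID1A/B.2.3 the values were 69.9, 71.9 and 49.6, and in shARID1A/B.4.2 they were 118, 135 and 118. The Control libraries lay above all others, while shARID1A/B.4.2 and shARID1B.2 overlapped, as did shARID1B.3 with shARID1A/B.2.3 and shARID1A/B.2.3 with shARID1A.2. The log2 differences from Control were -1.79, -2.59, -0.69, -1.16, -1.59 and -0.63 in the order of conditions used for ITGA9, with a standard error of 0.18 and all called lower in limma. Among leukocyte markers, 2 of 5 were tested. Their summed value was 417 to 442 in Control and 61.5 to 331 elsewhere, almost all of it from PTPRC, the common leukocyte antigen, while CD3E was at 0 in every Control library. PTPRC was lower than in Control in all 6 conditions, whereas ITGAL, the other one tested, was called lower only in shARID1A.2, shARID1A/B.2.3 and shARID1A/B.4.2. CD3E, which fell under the filter, was at 2.23 to 8.31 in shARID1A.2 and 5.47 to 8.5 in shARID1A/B.4.2. The part of PTPRC in the values of ITGA4 was not tested.

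ITGA8, on chromosome 10 from 15513949 to 15720125 (minus strand), encodes alpha-8, which binds nephronectin. It was the least abundant member, with normalized values of 63.4, 80.6 and 64.7 in Control. The values were 21.6, 34 and 34.5 in shARID1A.2 and 17.5, 9.51 and 22.9 in shARID1A.4. Both conditions lay below every Control library. In shARID1B.3 they were 8.96, 1.9 and 11.2, from 9, 2 and 13 reads. This was the lowest mean of all conditions, although the range overlapped that of shARID1A.4. In shARID1B.2 they were 49, 52.1 and 40.9, in shARID1A/B.2.3 45.6, 62.5 and 62.3, and in shARID1A/B.4.2 23.7, 28.6 and 28.1. Log2 differences from Control were -1.21 in shARID1A.2, -2.07 in shARID1A.4, -3.31 in shARID1B.3 and -1.34 in shARID1A/B.4.2, all called lower. In shARID1B.2 and shARID1A/B.2.3 the differences were -0.54 (adjusted p = 0.2 from limma, 95% interval -1.31 to 0.22) and -0.29 (adjusted p = 0.49, interval -1.06 to 0.47). Every library of these 2 conditions lay below the lowest Control library, yet neither difference was called in limma over all 21 libraries. The difference in shARID1B.2 was called by edgeR on recovered reads (adjusted p = 0.0499) and by limma with only the libraries compared (adjusted p = 0.0148). The value in shARID1B.3 rested in part on replicate 2 of that condition, the library with 2 reads, without which it was -2.67. The standard error was 0.37, and fold changes on the scale of value plus 1 understate the change of so low a gene.

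ITGA5, on chromosome 12 from 54395261 to 54419460 (minus strand), encodes alpha-5, the subunit of the classical fibronectin receptor. Normalized values were 284, 273 and 299 in Control. They were 66.5, 48.4 and 49 in shARID1A.2, but 261, 271 and 240 in shARID1A.4. Libraries of the same label were thus widely apart, those of shARID1A.2 near the bottom of all 21 and those of shARID1A.4 just under Control. In shARID1B.2 the values were 147, 177 and 181, and in shARID1B.3 they were 56.7, 70.3 and 77.7. In shARID1A/B.4.2 they were 81.1, 105 and 103, and in shARID1A/B.2.3 they were 712, 750 and 738. The shARID1A/B.2.3 libraries were the highest and did not overlap those of any other condition. The log2 difference of shARID1A/B.2.3 from Control was 1.36, a 2.56-fold higher value, whereas shARID1A/B.4.2 had -1.56, shARID1A.2 had -2.38, shARID1B.2 had -0.76 and shARID1B.3 had -2.06, with a standard error of 0.13 and all called in limma. In shARID1A.4 it was -0.15 (adjusted p = 0.291 from limma, 95% interval -0.41 to 0.11).

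**Figure D2:**
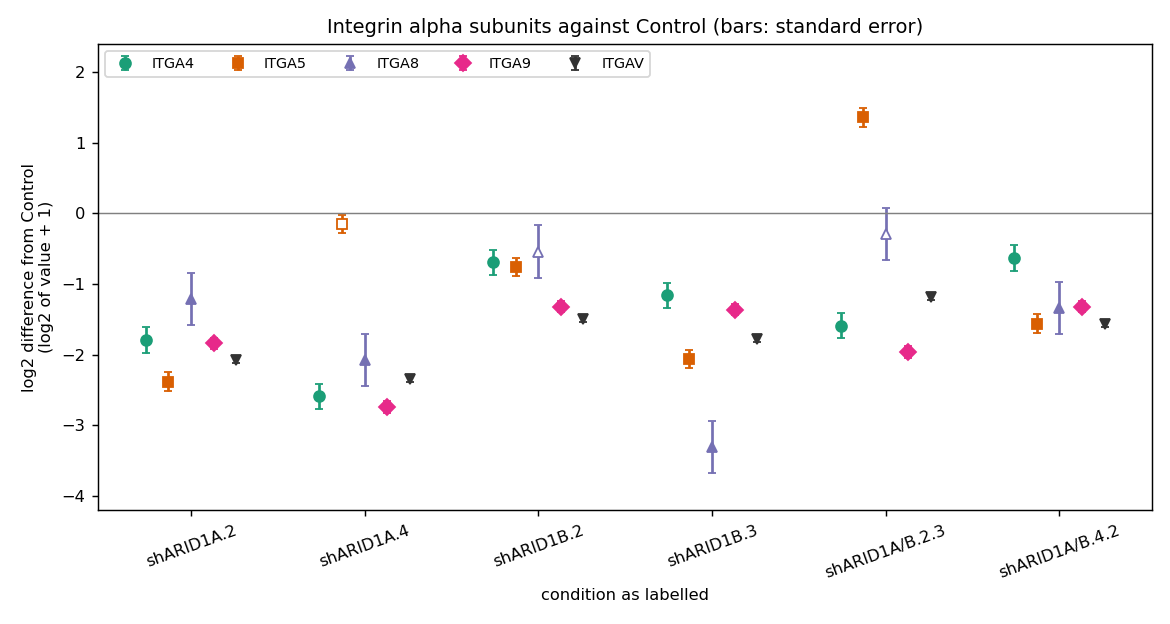
Log2 difference from Control (log2 of normalized value plus 1) of 5 integrin alpha genes in 6 silenced conditions as labelled, with standard error bars, where open symbols did not pass an adjusted p of 0.05 and filled ones did. ITGA5 lies above 0 in shARID1A/B.2.3 and has its lowest value, -2.38, in shARID1A.2, and ITGAV, ITGA4 and ITGA9 lie below 0 throughout.

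Counted by condition, 5 members were lower and 0 higher in shARID1A.2, where 38.2% of all genes tested were lower and 37.9% higher. In shARID1A.4, 4 were lower and 0 higher, beside 36.6% and 37.0% of all genes. In shARID1B.2, 4 were lower and 0 higher (34.0% and 31.6% of all genes), and in shARID1B.3, 5 and 0 (32.0% and 31.9%). In shARID1A/B.2.3, 3 were lower and 1 higher (34.0% and 35.2%), and in shARID1A/B.4.2, 5 and 0 (36.1% and 35.1%). With so many of all genes called in each direction, the counts of members are to be read against these shares. The median log2 difference of the 5 members was -1.84, -2.34, -0.76, -1.78, -1.18 and -1.34 in these 6 conditions, and that of all genes tested lay between 0.01 and 0.02. All 6 comparisons share the 3 Control libraries. At the study's stricter cutoff, a log2 difference below -1.5 and an adjusted p under 0.001, 4 members passed in shARID1A.2 (4.79% of all genes) and 4 in shARID1A.4 (5.0%). At that cutoff 0 passed in shARID1B.2 (1.68%), 3 in shARID1B.3 (2.27%), 2 in shARID1A/B.2.3 (2.99%) and 2 in shARID1A/B.4.2 (3.14%).

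The shRNAs that share a label were compared directly, and 14 of 15 member differences passed an adjusted p of 0.05. Between shARID1A.2 and shARID1A.4 all 5 members differed (75.8% of all genes did). ITGA5 was lower in shARID1A.2 by 2.23 on the log2 scale, whereas ITGA9 was higher there by 0.9 (95% interval 0.73 to 1.07). Between shARID1B.2 and shARID1B.3, 4 members differed (66.0% of all genes), with ITGA8 higher in shARID1B.2 by 2.77 (interval 2.01 to 3.53), or 2.12 without shARID1B.3 replicate 2, and ITGA5 by 1.29. ITGA9 was the exception, with a difference of 0.04 (adjusted p = 0.657 from limma, interval -0.13 to 0.21). Between shARID1A/B.2.3 and shARID1A/B.4.2 all 5 differed (74.9% of all genes). ITGA5 was 7.59-fold higher in shARID1A/B.2.3, a log2 difference of 2.92 (interval 2.66 to 3.19), while ITGA4 and ITGA9 were lower there by 0.96 and 0.63. ITGAV differed least among the members called, by 0.27, 0.28 and 0.4 in the 3 pairs. The difference of ITGA8 between shARID1A.2 and shARID1A.4, 0.86, lost its call without shARID1A.2 replicate 2 (0.76), without shARID1A.2 replicate 3 (0.75) or without shARID1A.4 replicate 2 (0.53). That of ITGA4 between shARID1B.2 and shARID1B.3, 0.47, lost it without shARID1B.2 replicate 2 (0.43), without shARID1B.2 replicate 3 (0.46) or without shARID1B.3 replicate 2 (0.27).

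Labels were also compared directly, as means of their 2 conditions. The error of these tests is the spread between libraries within a condition, and does not include the spread between shRNAs. On the log2 scale ITGAV was higher under the label shARID1A/B than under shARID1A by 0.82, and higher than under shARID1B by 0.26. It was lower under shARID1A than under shARID1B, with a difference of -0.56. Of the members, 5 of 5 differed between the labels shARID1A/B and shARID1A (59.2% of all genes), 4 of 5 between shARID1A/B and shARID1B (70.2%), and 3 of 5 between shARID1A and shARID1B (67.3%). ITGA4 was at 41.7% of its shARID1B level under the label shARID1A, and ITGA9 at 51.9%. With the 6 libraries of a label pooled as 1 group, the spread between shRNAs enters the error. The pooled fit still counts the 6 libraries as independent, although each label holds only 2 shRNAs or combinations. In it 3 members, ITGA4, ITGA9 and ITGAV, differed between shARID1A/B and shARID1A (9.31% of all genes did) and 0 between shARID1A/B and shARID1B (27.9%). The same 3 genes differed between shARID1A and shARID1B (21.4%). At an unadjusted p under 0.05, 1 member, ITGAV, differed between shARID1A/B and shARID1B in limma. The share of all genes at that unadjusted threshold was not counted, and the difference was not called after adjustment. In that pooled fit ITGAV had an adjusted p of 0.0608 and ITGA5 of 0.136 for shARID1A/B against shARID1B, from limma.

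Levels of different genes can be compared only per length. Per kb of merged exon the 5 genes summed to a normalized value of 1314 ± 36.6 (SD, n = 3) in Control, 319 ± 10.3 in shARID1A.2, 282 ± 15.6 in shARID1A.4, 489 ± 4.11 in shARID1B.2, 393 ± 12.1 in shARID1B.3, 643 ± 20.5 in shARID1A/B.2.3 and 456 ± 19.9 in shARID1A/B.4.2. Every silenced condition was below the lowest Control library, which summed to 1286. ITGAV made up 87.0% of the sum in Control and 78.5% in shARID1A/B.2.3, the lowest share. ITGA5 made up 2.87% in Control, 12.1% in shARID1A.4 and 15.1% in shARID1A/B.2.3.

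**Figure D3:**
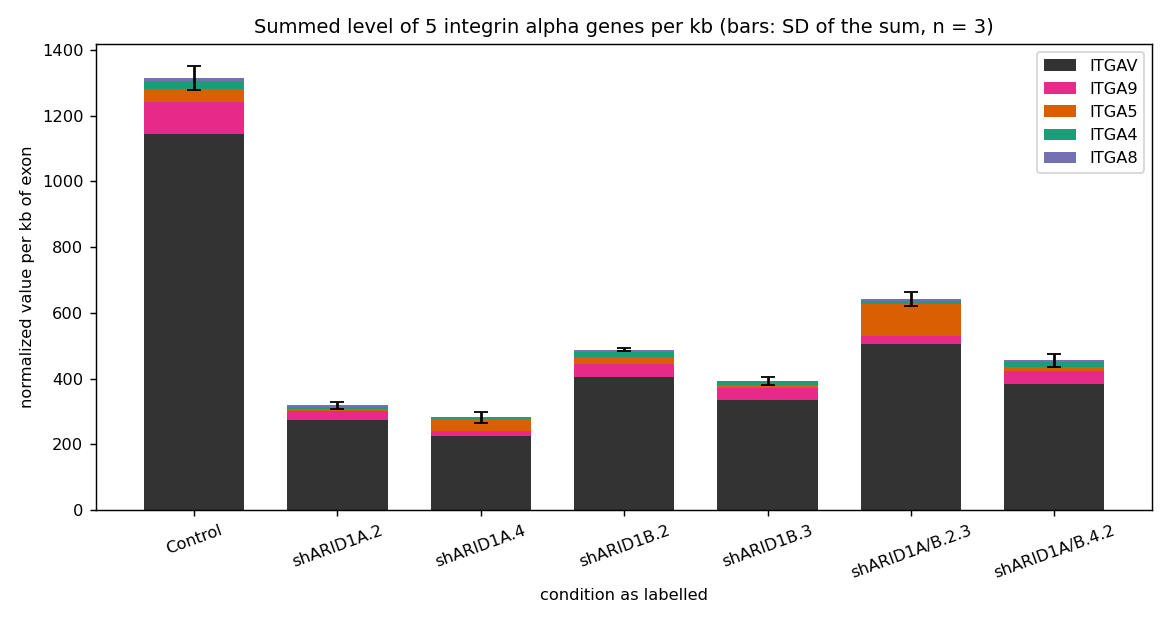
Mean normalized value per kb of merged exon of ITGAV, ITGA9, ITGA5, ITGA4 and ITGA8, stacked by condition as labelled, with error bars for the SD of the sum over 3 libraries. The sum is 1314 in Control and lowest in shARID1A.4 at 282, and ITGAV fills 78.5% to 87.0% of each bar.

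Over the 21 libraries, ITGA4 and ITGA9, the non-RGD pair, had the closest profiles among the members (Pearson r = 0.92 of log2 values), followed by ITGA9 and ITGAV (0.85) and ITGA4 and ITGAV (0.77). ITGA5 was near 0 with ITGA4 (-0.05) and ITGA9 (-0.06). The points share the 7 conditions and the 3 Control libraries, so these values describe mostly the condition means. Among other genes with a mean value of at least 50, those most like each member by the same measure were CELF2 (0.957), IGFBP7 (0.952) and PALLD (0.95) for ITGA4, and GNPTAB (0.985), RSU1 (0.97) and ARHGAP17 (0.965) for ITGA5. For ITGA8 they were ETNK2 (0.93), ARID2 (0.93) and PCGF6 (0.924), for ITGA9 RBM12 (0.981), ANO6 (0.98) and ZNF100 (0.973), and for ITGAV SPDL1 (0.987), LOXL2 (0.986) and GPR161 (0.978).

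The beta subunits that pair with these alpha subunits were counted as a list of 6 genes, of which 5 were tested and ITGB6 fell under the filter. In the 6 conditions in the order used above, 3, 4, 2, 3, 3 and 3 of them were lower and 1, 0, 2, 0, 1 and 1 higher. The shares of all genes tested that were called in these conditions, 32.0% to 38.2% lower and 31.6% to 37.9% higher, are the background for these counts and for those of the ligands, other alpha subunits and intracellular partners. ITGB1, the partner of all members, had normalized values of 23850 to 24712 in Control and 7673 to 7750 in shARID1B.2. Its log2 difference was -1.46 in shARID1A.2 and -1.65 in shARID1B.2, but -0.31 in shARID1A.4 and -0.05 (not called) in shARID1B.3. ITGB3, which forms the vitronectin receptor with alpha-V, was lower in all 6 conditions, from -3.14 in shARID1A.2 to -0.83 in shARID1A/B.2.3. ITGB5, another partner of alpha-V, was higher in shARID1A.2 (0.36), shARID1B.2 (0.49), shARID1A/B.2.3 (0.28) and shARID1A/B.4.2 (0.31). It was lower in shARID1A.4 (-0.4) and shARID1B.3 (-1.06). ITGB8 was higher in shARID1B.2 (0.23) and lower in the other 5 conditions. ITGB7, which pairs with alpha-4 in lymphocytes, was called in 0 conditions and did not exceed a value of 10.5.

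Of 21 ligand genes, 16 were tested, and 12, 13, 8, 11, 10 and 11 were lower while 2, 1, 6, 3, 2 and 3 were higher. Their median log2 difference ran from -1.01 in shARID1A.4 to -0.42 in shARID1B.2. FN1, fibronectin, was lower in all 6, from -1.18 in shARID1A.4 to -0.32 in shARID1A/B.2.3. TNC, tenascin C, was lower in all 6, by 2.22 in both shARID1A.2 and shARID1B.2. The matricellular genes CCN1 and CCN2, ligands of alpha-V, were lower in all 6, with CCN2 at -3.22 in shARID1A.4. SPP1, osteopontin, was called higher in all 6, yet from only 1.03 to 2.35 in the Control libraries to 20.1 to 21.6 in shARID1A.2, and a fold of so low a gene depends on the pseudocount. VTN, vitronectin, was higher in shARID1A/B.4.2 alone among the 6 conditions (0.8). VCAM1, the ligand of alpha-4, was at 5.6 to 11.3 in Control, and fell under the filter.

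The 13 other alpha subunits, of which 10 were tested, had 7, 7, 5, 4, 8 and 6 lower and 0, 1, 0, 1, 1 and 0 higher. The laminin receptor subunits ITGA3 and ITGA6 were lower in all 6, with ITGA6 at -2.28 in shARID1B.2. ITGA7, another laminin receptor subunit, was lower in shARID1A.4 (-0.8) and shARID1A/B.2.3 (-1.07) and not called in the other conditions. ITGA2B, the RGD-binding subunit on this list, was likewise lower only in shARID1A.4 (-0.69) and shARID1A/B.2.3 (-1.75), and not called elsewhere. Of 15 intracellular partners, 12, 8, 14, 9, 5 and 12 were lower and 1, 4, 1, 3, 7 and 1 higher, so that the 5 lower in shARID1A/B.2.3 were near the background of 34.0%. ILK, a pseudokinase that binds beta tails, was lower in all 6 conditions (-1.13 in shARID1A.2 to -0.52 in shARID1A/B.4.2). FERMT1, kindlin-1, was higher in shARID1A.4 (2.17) and shARID1A/B.2.3 (2.1), the conditions where ITGA5 was nearest to or above Control. SAT1, whose product binds the alpha-9 tail, was lower in shARID1B.2 (-0.16) and higher in the other 5 conditions.

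Markers of other cell states or types moved with the conditions as well. Those of mesenchymal-type neuroblastoma cells or fibroblasts, of which 7 of 8 were tested, summed to 28075 to 28698 in Control and 7614 to 26162 elsewhere. Their sum was lowest in shARID1A/B.4.2, and PRRX1 was at 0 in every Control library. Of the 7, in the order of conditions used above, 6, 5, 4, 5, 5 and 7 were lower and 1, 2, 1, 0, 2 and 0 higher. The background for these counts is the same, 32.0% to 38.2% of all genes tested lower and 31.6% to 37.9% higher. Epithelial markers, of which 3 of 4 were tested, summed to 112 to 122 in Control and 93.4 to 318 elsewhere, with CDH1 at no more than 5.41. The part of these markers in the integrin values was not tested.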

How the data were processed

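RNA-Seq libraries were made with a stranded mRNA kit and sequenced on a NovaSeq instrument. The submitters' processing notes name STAR 2.5.3a, RSEM 1.3.0, DESeq2 1.26.0 and GRCh38. For each gene and library the authors deposited a signal, namely reads over 1 size factor (0.841 to 1.294). Whole reads were recovered for 100% of values within 0.1 read. Their 3 tables of comparisons hold fold changes and p-values and were not used. Members and lists were chosen with earlier results of these data known.

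Log2 of the value plus 1 was fitted with limma 3.58.1 with a trend (R 4.3.3) over 21 libraries in 7 conditions as labelled, without a block. The edgeR filter on recovered reads kept 18584 of 60728 genes. Benjamini-Hochberg adjustment was made within each of 12 comparisons. Groups came from the sample titles. The design named this limma fit for a signal scaled by size factors. Exon lengths and coordinates are from GENCODE 29, matched by gene identifier without its version.

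Named genes were the 5 members, ARID1A and ARID1B, genes of the 4 lists with their calls, and for each member the 3 genes with the highest correlation at a mean of at least 50. Marker genes came from 4 further lists, and ITGA9-AS1 was named after its values were seen. Alternatives were edgeR 4.0.16, DESeq2 1.42.0, pseudocounts of 0.5 and 5, no filter (35892 genes), at least 10 reads in every library (14637 genes), 3 other scalings, only the libraries compared, a replicate block, 4 label groups and each library left out. Replicate pairs differed by more than sampling noise (chi-square per degree of freedom 1.54 to 3.99, 21 pairs). In simulated reads over 18584 genes for shARID1A.2 against Control, limma found 192 of 200 changed genes with 13 other calls, edgeR 191 with 8 and DESeq2 190 with 9. Only those 200 genes were changed, whereas 38.2% of genes were called lower and 37.9% higher in the data. The simulation therefore does not cover changes that widespread. Figures used Python 3.11.15 and matplotlib 3.10.9.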

Additional observations from a re-analysis of the deposited data

Results flagged for a closer look

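Differences between shRNAs or combinations that share a label were tested directly in limma, and 14 of 15 passed the threshold. For shARID1A.2 minus shARID1A.4 they were 0.8 for ITGA4, -2.23 for ITGA5, 0.86 for ITGA8, 0.9 for ITGA9 and 0.27 for ITGAV on the log2 scale. For shARID1B.2 minus shARID1B.3 they were 0.47 for ITGA4, 1.29 for ITGA5, 2.77 for ITGA8 and 0.28 for ITGAV. For shARID1A/B.2.3 minus shARID1A/B.4.2 they were -0.96 for ITGA4, 2.92 for ITGA5, 1.05 for ITGA8, -0.63 for ITGA9 and 0.4 for ITGAV. In these 3 pairs 75.8%, 66.0% and 74.9% of all genes tested differed.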

How the results depend on the processing

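Of 663 values of the 5 members under alternative settings, 654 kept direction and call, 7 lost the call, 2 gained it and 0 changed sign. Of 450 values with 1 library left out, 442 kept both, 6 lost the call, 1 gained it and 1 changed sign, namely ITGA8 for shARID1A minus shARID1B, not called in either fit, at -0.03 without shARID1B.3 replicate 2 in place of 0.29, in a range of -0.03 to 0.49. With the 6 libraries of a label as 1 group, the members that differed numbered 3 for shARID1A/B minus shARID1A and 0 for shARID1A/B minus shARID1B, and the genes that differed over all numbered 1731 and 5177, against 11000 and 13039, and 3980 against 12510 for shARID1A minus shARID1B. With the study's cutoff, chosen after seeing the data, members lower numbered 0 in shARID1B.2, 3 in shARID1B.3 and 2 in shARID1A/B.4.2. The call of ITGA8 between shARID1A.2 and shARID1A.4 was lost with no filter (adjusted p = 0.0801 from limma). ITGA8 in shARID1B.2 was called by edgeR (adjusted p = 0.0499) and with only the libraries compared (0.0148, limma), within a range of 0.0148 to 0.336. ITGA4 was called for shARID1A/B minus shARID1B without shARID1B.3 replicate 2 (-0.29). The replicate numbers did not pair the libraries, with correlations of same-numbered deviations of -0.2 to 0.14 over 63 pairs, and a replicate block left ITGAV at -2.07 in shARID1A.2 and changed no member's call. The cause of these changes was not tested, except that the pooled fit adds the spread between shRNAs by its construction. Reads limit ITGA8 most, with 2 to 72 reads per library.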
